A study of Mus musculus with 48 samples.

Results

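Cytochromes P450 are haem-containing monooxygenases of the endoplasmic reticulum, and those of families 1, 2 and 3 carry out most of the oxidation of drugs, environmental chemicals and steroid hormones in the liver. They take electrons from cytochrome P450 oxidoreductase, and their genes are controlled by xenobiotic sensors, among them the aryl hydrocarbon receptor (AhR, which acts on family 1), the constitutive androstane receptor (CAR, classically on Cyp2b) and the pregnane X receptor (PXR, classically on Cyp3a). In rodents several Cyp2 and Cyp3 genes are also expressed at different levels in males and females, under the control of growth hormone. The genes described here are every entry of the TempO-Seq tables whose symbol starts with Cyp1, Cyp2 or Cyp3 followed by a letter. There were 42 of them among 11275 genes measured in frozen (FROZ) liver and 27 among 6673 genes measured in formalin-fixed paraffin-embedded (FFPE) liver, and all 27 were also among the 42.

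The livers came from 24 male B6C3F1 mice, the F1 hybrid of C57BL/6 females and C3H males, which were 4 weeks old and received dichloroacetic acid (DCA), a by-product of water chlorination, in drinking water for 6 days. The 4 groups of 6 mice were a vehicle control (0 mg/kg-d) and DCA at 198 mg/kg-d (1.0 g/L in the water), 313 mg/kg-d (2.0 g/L) or 427 mg/kg-d (3.5 g/L). Every animal was sequenced from both a FROZ and an FFPE block, 48 libraries in all, taken from lobes that were only partly the same, with purified RNA used for FROZ and a tissue lysate for FFPE, so preservation, lobe and input cannot be told apart. TempO-Seq reads a pair of detector oligos that anneal side by side to a target sequence, which makes a value a probe level that is not comparable between genes. The positions and number of targets of each gene were not examined here. The oligos of very abundant transcripts, among the P450s those of Cyp2e1, Cyp2c29 and Cyp2f2, were attenuated by the same factor in every library.

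Values are log2(CPM + 1) (CPM, reads on a gene per 1000000 reads on the listed genes). At the step of the lowest values, 1 read was worth 0.102 to 0.150 CPM in FROZ and 0.166 to 0.546 CPM in FFPE, or 6687000 to 9844000 and 1832000 to 6012000 reads per library. Between 12 and 61 genes were at 0 in a FROZ library and between 65 and 1580 in an FFPE library, and 4 FFPE libraries, 3 at 198 and 1 at 313 mg/kg-d, had over 1000. Of the hepatocyte markers, 9 of 10 were listed and none was at 0 in a FROZ control or at 427 mg/kg-d, and their summed level ran from 44370 to 51200 CPM in the FROZ controls and from 36640 to 43000 CPM at 427 mg/kg-d, so these ranges did not overlap. Of these 9, Ambp and Fgb fell and Apoa2 rose at 427 mg/kg-d, and after median-ratio rescaling 5 fell and 0 rose. Summed endothelial markers (7 of 7 listed) ran from 136 to 155 CPM in controls and from 106 to 131 CPM at 427 mg/kg-d, without overlap. Kupffer cell markers (6 of 7 listed) ran from 76.3 to 115 and from 64.0 to 82.8 CPM, with overlap, and Adgre1, Cd5l and Csf1r among them fell. Stellate cell (302 to 689 against 261 to 468 CPM, 7 of 8 listed), cholangiocyte (32.9 to 45.0 against 29.9 to 46.9 CPM, 3 of 6) and lymphocyte sums (31.2 to 45.2 against 22.8 to 74.4 CPM, 3 of 6) overlapped too. The part of these changes in the results below was not tested, and in whole tissue fewer cells of a type and less RNA per cell cannot be told apart.

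P450 expression was nearly flat at 198 mg/kg-d and split at the higher doses: 4 of the 6 listed Cyp2a and Cyp2b genes of chromosome 7 rose, by up to 26.2-fold, while most Cyp2c genes of chromosome 19 and Cyp1a2 fell. With limma across all genes (adjusted p under 0.05, Benjamini-Hochberg), 0 of 42 P450 genes passed at 198 mg/kg-d in FROZ, where 1.12% of all genes were higher and 0.443% lower and where 3 of the 42 had an unadjusted p under 0.05, against 17.1% of all genes. At 313 mg/kg-d, 7 of the 42 rose (20.5% of all genes) and 14 fell (6.15% of all genes). At 427 mg/kg-d, 8 rose (22.7% of all genes) and 10 fell (7.33% of all genes). Differentially expressed genes (DEGs), which also changed more than 2-fold, numbered 10 P450 genes at 313 mg/kg-d (2.31% of all genes) and 10 at 427 mg/kg-d (3.5% of all genes). For 11 of the 42 all libraries at 427 mg/kg-d lay beyond every control, against 14.7% of all genes, 7 above it and 4 below it.

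The median log2 change of all genes was 0.07, 0.11 and 0.10 at the 3 doses in FROZ (-0.19, -0.12 and 0.18 in FFPE), and that of the 42 P450 genes was -0.01, -0.25 and -0.18. When libraries were rescaled to a median ratio of 1, the FROZ shifts became 0.00, -0.00 and -0.01. P450 calls at 313 mg/kg-d then were 5 higher (10.4% of all genes) and 14 lower (10.7% of all genes). At 427 mg/kg-d they were 6 higher (12.1% of all genes) and 18 lower (13.2% of all genes), so the share of P450 calls that were higher fell from 44.4 to 25%. The calls of all genes moved the same way, from 2565 higher and 826 lower to 1359 higher and 1486 lower. Cyp2b9, Cyp2a4, Cyp2a5, Cyp2a22, Cyp2c38 and Cyp2c39 rose under both scalings at 427 mg/kg-d, and the 10 genes that fell as deposited also fell after rescaling.

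**Figure D1:**
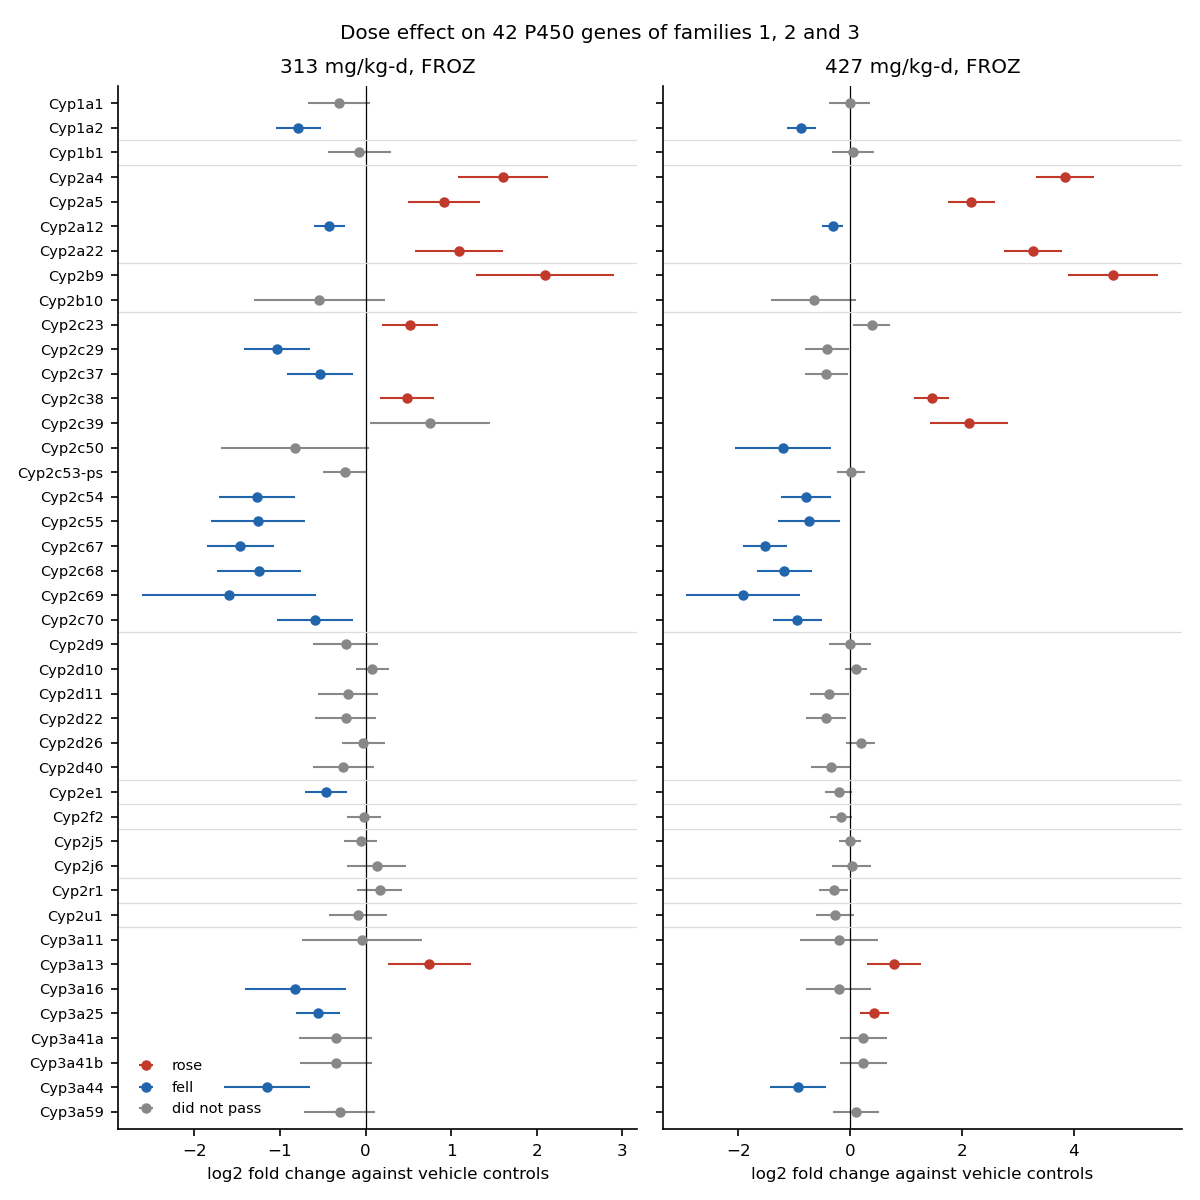
Log2 fold change of each of the 42 P450 genes against the vehicle controls in FROZ liver at 313 mg/kg-d (left) and 427 mg/kg-d (right), grouped by subfamily; points are limma estimates, bars their 95% intervals, with red for rose, blue for fell and grey for not passed at an adjusted p of 0.05. Cyp2a4, Cyp2a5, Cyp2a22 and Cyp2b9 sit to the right and most Cyp2c genes, with Cyp2a12 and Cyp2b10, to the left, with Cyp2b9 the highest at 4.71 and Cyp2c69 the lowest at -1.91 at 427 mg/kg-d.

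The genes with the largest increases lie in the Cyp2a, Cyp2b and Cyp2f cluster of chromosome 7 (chr7:25897658-27133660, GRCm38.p6, 1236.0 kb, all 7 listed genes protein coding). In this cluster RefSeq holds 15 P450 genes, pseudogenes included, and 7 were listed in FROZ, of which Cyp2b9, Cyp2a4, Cyp2a5 and Cyp2a22 rose, Cyp2a12 fell and Cyp2b10 and Cyp2f2 did not pass at 427 mg/kg-d. Because these 4 rose together, the 150 bases before the RefSeq start of each are given 5′ to 3′ on the gene's strand, from chr7:26173259-26173408 (+), chr7:26307042-26307191 (+), chr7:26835189-26835338 (+) and chr7:26939387-26939536 (-), with capitals for TATAAA, the TATA box, or, in Cyp2b9, for AGGTCA, the hexamer that nuclear receptors such as CAR and PXR bind.
Cyp2b9: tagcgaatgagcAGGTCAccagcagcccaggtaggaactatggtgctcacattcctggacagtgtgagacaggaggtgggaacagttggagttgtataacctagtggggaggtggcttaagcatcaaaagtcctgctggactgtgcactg
Cyp2a4: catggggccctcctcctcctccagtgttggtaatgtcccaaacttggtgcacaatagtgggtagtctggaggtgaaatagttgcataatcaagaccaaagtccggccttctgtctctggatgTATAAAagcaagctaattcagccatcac
Cyp2a5: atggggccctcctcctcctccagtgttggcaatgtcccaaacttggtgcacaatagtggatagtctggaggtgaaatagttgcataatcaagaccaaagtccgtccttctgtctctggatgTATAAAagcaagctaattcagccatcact
Cyp2a22: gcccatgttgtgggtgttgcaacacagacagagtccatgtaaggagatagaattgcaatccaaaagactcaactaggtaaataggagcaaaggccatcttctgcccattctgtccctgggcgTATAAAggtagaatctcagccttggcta
TATAAA starts 28 bases before the start in Cyp2a4 and Cyp2a22 and 29 bases before it in Cyp2a5, and was not found in the 250 bases before the start of Cyp2b9, whose AGGTCA starts 138 bases before it. TATAAA was present, on either strand, in 23 of the 37 P450 genes with a RefSeq promoter and in 12.4% of 32851 promoters, and AGGTCA in 10 of 37 and in 14.0%. A gene was counted if any of its promoters held the letters before the RefSeq start. Cyp2c39 and Cyp2c69, which hold TATAAA across or past that start, are therefore not counted for it. Over 250 bases, with gaps counted as differences, the Cyp2a4 and Cyp2a5 promoters were 97.6% identical. Cyp2a4 was 53.4% identical to Cyp2a22 and 52.8% to Cyp2b9. A match of letters is a description, not a binding site.

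Cyp2b9, a steroid hydroxylase that is female-biased in adult mouse liver, had the largest change of all 42 genes. In the 6 vehicle controls its lowest, median and highest values were 0.29, 0.75 and 1.53 log2(CPM + 1), which is 2 to 15 reads a library. At 198 mg/kg-d they were 0.00, 0.48 and 0.72, at 313 mg/kg-d 1.31, 3.09 and 4.12, and at 427 mg/kg-d 4.31, 5.39 and 7.33. Every library at 427 mg/kg-d was above every control, while at 313 mg/kg-d the lowest library was within the control range. The change was 2.09 ± 0.39 (SE) at 313 mg/kg-d (limma adjusted p = 0.00026) and 4.71 ± 0.39 at 427 mg/kg-d (26.2-fold, adjusted p = 7.31e-10), and the mean level rose from 0.84 ± 0.46 to 5.55 ± 1.02 (SD, n = 6). Since it was near its lower limit in controls, the offset of 1 CPM understates the fold.

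Its neighbour Cyp2b10, the classical CAR target, did not pass. Its lowest, median and highest values were 0.64, 2.41 and 3.16 in controls and 0.70, 1.73 and 2.44 at 427 mg/kg-d, so that the groups overlapped. The change was -0.65 (95% interval -1.41 to 0.11, adjusted p = 0.196). The coding and noncoding sequence of Cyp2b9 shares 10.8% of its 50-base windows with Cyp2b13 and that of Cyp2b10 7.82%, and Cyp2b13 was not analysed here, so the share of its transcripts in these values is unknown.

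Cyp2a4 (steroid 15-alpha-hydroxylase) and Cyp2a5 (coumarin 7-hydroxylase, which also oxidises nicotine and bilirubin) are near-identical neighbours with different sex bias in adults, Cyp2a4 being the female-biased gene. Cyp2a4 was at 3.79, 4.44 and 4.62 (lowest, median and highest) in controls, at 4.10, 4.50 and 4.93 at 198 mg/kg-d, at 4.89, 5.89 and 6.89 at 313 mg/kg-d, and at 7.74, 7.84 and 9.15 at 427 mg/kg-d. All 6 libraries were above the controls at both 313 and 427 mg/kg-d, with changes of 1.60 ± 0.25 (adjusted p = 3.43e-05) and 3.84 ± 0.25 (14.3-fold, adjusted p = 1.24e-11).

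Cyp2a5 was at 6.12, 6.82 and 6.94 in controls, at 6.79, 7.06 and 7.25 at 198 mg/kg-d, at 6.97, 7.65 and 8.40 at 313 mg/kg-d and at 8.36, 8.99 and 9.58 at 427 mg/kg-d. It too was above all controls in all 6 libraries at both higher doses, with changes of 0.92 ± 0.20 (adjusted p = 0.00141) and 2.17 ± 0.20 (4.49-fold, adjusted p = 6.03e-09). At 198 mg/kg-d 5 of its 6 libraries were already above all controls, and the change of 0.32 ± 0.20 did not pass (limma adjusted p = 0.434). In FROZ the CPM of Cyp2a4 was 0.189 times that of Cyp2a5 in the median control (0.154 to 0.199) and 0.577 times in the median library at 427 mg/kg-d (0.437 to 1.11), which does not overlap. In FFPE it was 0.0704 times in the median control (0.0163 to 0.182) and 0.192 times at 427 mg/kg-d (0.173 to 0.436), with overlap. Cyp2a4 shares 36.1% of its 50-base windows with Cyp2a5, and reads that fit both could be divided between them by the authors' counting.

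Cyp2a22 rose from 1.53, 1.88 and 2.36 in controls to 2.48, 2.81 and 3.65 at 313 mg/kg-d and 4.32, 5.39 and 6.02 at 427 mg/kg-d. Its libraries lay above all controls at both doses, with changes of 1.09 ± 0.25 (adjusted p = 0.00194) and 3.27 ± 0.25 (9.65-fold, adjusted p = 1.51e-10). Cyp2a12, which has the highest probe level of the subfamily and shares 27.5% of its windows with Cyp2a22, went the other way. It was at 8.27, 8.52 and 8.62 in controls, 7.98, 8.03 and 8.23 at 313 mg/kg-d and 7.89, 8.24 and 8.34 at 427 mg/kg-d, below all controls at 313 and overlapping them at 427 mg/kg-d. Cyp2a12 fell by 0.42 (adjusted p = 0.000892) and by 0.32 (adjusted p = 0.00837) on the log2 scale.

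Cyp2f2, the periportal P450 that bioactivates naphthalene in airway cells, closes the cluster at 7.33, 7.49 and 7.78 in controls and 7.17, 7.39 and 7.48 at 427 mg/kg-d. The groups overlapped and the change was -0.17 (95% interval -0.37 to 0.03, adjusted p = 0.209) as deposited. After median-ratio rescaling it was -0.32 (adjusted p = 0.0165).

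The same animals were not highest throughout. Of the 6 mice at 427 mg/kg-d, number 99 had the highest Cyp2b9 (7.33), Cyp2a4 (9.15) and Cyp2a22 (6.02), while number 102 had the highest Cyp2a5 (9.58). Leaving out each library in turn kept the change at 427 mg/kg-d between 4.35 and 4.96 for Cyp2b9, between 3.64 and 3.92 for Cyp2a4, between 2.03 and 2.27 for Cyp2a5 and between 3.10 and 3.44 for Cyp2a22.

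**Figure D2:**
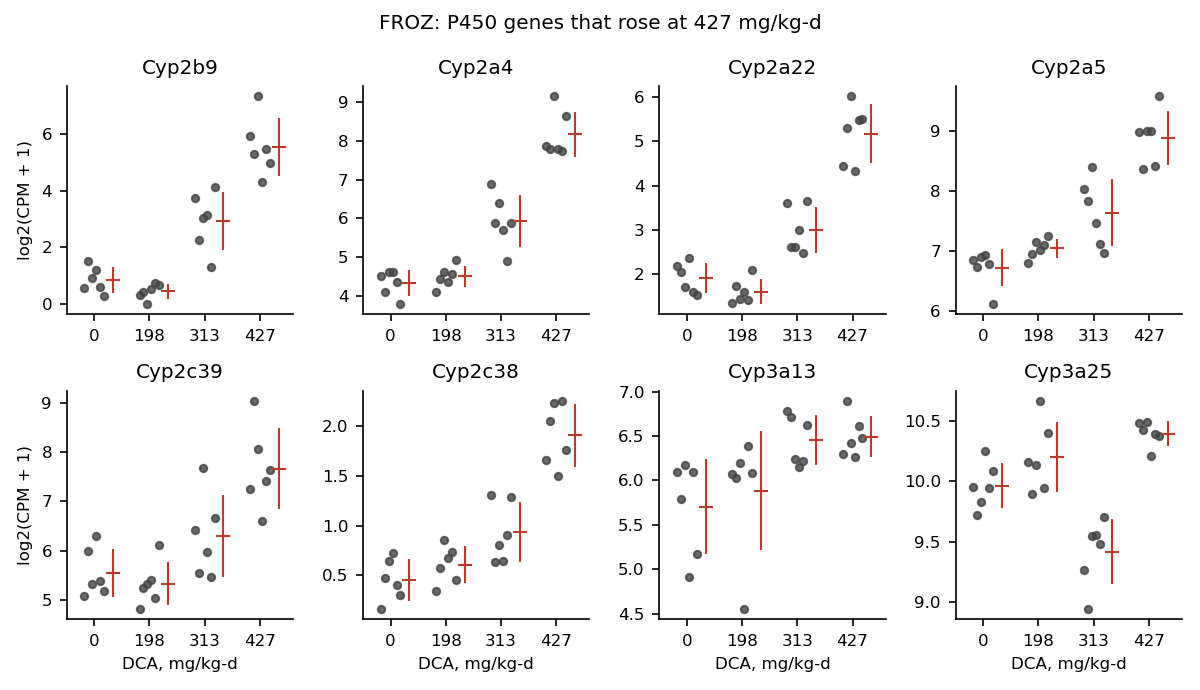
FROZ values in log2(CPM + 1) of the 8 P450 genes that rose at 427 mg/kg-d, for each of the 6 libraries of the vehicle and the 3 DCA doses in mg/kg-d; points are libraries and bars the group mean ± SD. The increase in Cyp2b9, Cyp2a4 and Cyp2a22 begins at 313 mg/kg-d, while Cyp2a5 already has 5 of 6 libraries above all controls at 198 mg/kg-d. Cyp3a25 dips at 313 mg/kg-d before it rises.

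The Cyp2c cluster of chromosome 19 (chr19:39006940-40187286, GRCm38.p6, 1180.3 kb) moved mostly down. Its genes encode enzymes that oxidise steroids, drugs and arachidonic acid, and RefSeq holds 17 P450 genes there, of which 12 were listed. At 427 mg/kg-d 7 of the 12 fell, 3 did not pass and 2 rose, and these 2, Cyp2c39 and Cyp2c38, are neighbours. Promoters are given for the 2 that rose and for Cyp2c67 and Cyp2c69, both of which fell, over the 250 bases before the RefSeq start at chr19:39463076-39463325 (-), chr19:39510572-39510821 (+), chr19:39649043-39649292 (-) and chr19:39886770-39887019 (-), with capitals for TGTTTAC, the forkhead factor motif, in the genes that rose and for CAAAGTCCA, a motif of the hepatocyte nuclear receptor HNF4A, in those that fell.
Cyp2c38: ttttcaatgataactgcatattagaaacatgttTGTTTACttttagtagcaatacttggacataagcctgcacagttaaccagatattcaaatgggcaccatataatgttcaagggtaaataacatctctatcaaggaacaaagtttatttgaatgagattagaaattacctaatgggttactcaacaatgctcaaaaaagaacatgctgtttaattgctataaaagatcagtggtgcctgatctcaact
Cyp2c39: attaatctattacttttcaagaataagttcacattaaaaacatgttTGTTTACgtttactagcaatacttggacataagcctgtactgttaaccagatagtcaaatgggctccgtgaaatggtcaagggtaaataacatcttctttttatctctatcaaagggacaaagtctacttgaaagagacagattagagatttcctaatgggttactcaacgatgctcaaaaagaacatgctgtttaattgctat
Cyp2c67: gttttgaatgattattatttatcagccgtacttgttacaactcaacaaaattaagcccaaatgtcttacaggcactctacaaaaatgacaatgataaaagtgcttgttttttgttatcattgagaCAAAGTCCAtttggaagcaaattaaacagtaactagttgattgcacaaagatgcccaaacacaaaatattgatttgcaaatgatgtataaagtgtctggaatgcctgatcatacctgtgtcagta
Cyp2c69: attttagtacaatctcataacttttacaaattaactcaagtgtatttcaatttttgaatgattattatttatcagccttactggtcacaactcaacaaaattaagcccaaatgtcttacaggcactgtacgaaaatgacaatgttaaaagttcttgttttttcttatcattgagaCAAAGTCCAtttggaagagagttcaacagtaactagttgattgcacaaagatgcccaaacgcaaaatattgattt
RefSeq gives 2 promoters for Cyp2c39, of which the stretch above is the nearer to the GENCODE start, and the other, not printed, holds AGGTCA and is counted with the gene in the share of AGGTCA. With gaps counted as differences, those at the ends included, the Cyp2c38 and Cyp2c39 stretches were 71.3% identical (199 of 279 columns). Those of Cyp2c67 and Cyp2c69 were 62.7% identical (188 of 300 columns). Cyp2c67 was 56.9% identical to Cyp2c38 and 51.7% to Cyp2c39. CAAAGTCCA begins at position -125 from the start in Cyp2c67 and -75 in Cyp2c69, and TGTTTAC at -217 in Cyp2c38 and -204 in Cyp2c39. The windows of each pair are thus shifted against each other, and these percentages are lower than those of the bases that align. TGTTTAC was found in 8 of 37 P450 promoters and in 3.17% of all promoters. Besides Cyp2c38 and Cyp2c39, the 8 are Cyp2j5, Cyp3a11, Cyp3a16, Cyp3a41a and Cyp3a41b, which did not pass at 427 mg/kg-d, and Cyp3a44, which fell. It was not found in Cyp2b9, Cyp2a4, Cyp2a5, Cyp2a22, Cyp3a13 or Cyp3a25, which also rose. CAAAGTCCA was found in 8 of 37, in Cyp2c67, Cyp2c68, Cyp2c69 and Cyp2c70, which fell at 427 mg/kg-d, and in Cyp3a11, Cyp3a16, Cyp3a41a and Cyp3a41b, which did not pass there, against 0.384% of all promoters. It was not found in Cyp1a2, Cyp2a12, Cyp2c50, Cyp2c55 or Cyp3a44, which also fell. Of the other motifs searched on both strands, CCAAT was in 14 of 37 (33.8% of all promoters), GCGTG, the AhR core, in 4 (28.2%), ATTGCNNAA, a C/EBP motif, in 3 (1.93%), TTCNNNGAA, the STAT motif, in 0 (7.02%) and TGACNNNGC, the NRF2 core, in 0 (10.2%). No motif's letters contain those of another, and the absence of letters in this window says nothing about a factor.

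Cyp2c39, a retinoic acid hydroxylase counted among the female-biased genes, was at 5.08, 5.35 and 6.30 in controls, 5.46, 6.20 and 7.69 at 313 mg/kg-d and 6.60, 7.52 and 9.04 at 427 mg/kg-d. Its libraries at 427 mg/kg-d were all above the controls. The change was 0.75 ± 0.34 at 313 mg/kg-d (adjusted p = 0.104) and 2.13 ± 0.34 at 427 mg/kg-d (4.37-fold, adjusted p = 2.3e-05). Cyp2c38, an arachidonic acid P450, rose from 0.16, 0.43 and 0.72, or 1 to 6 reads a library, to 1.50, 1.91 and 2.25 at 427 mg/kg-d, again above all controls (1.46 ± 0.15, 2.75-fold, adjusted p = 3.75e-08). The RefSeq model of Cyp2c39 overlaps that of Cyp2c38 on the other strand, and the 2 transcripts share 11.0% of the windows of Cyp2c39.

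Among the genes that fell, Cyp2c67 had the largest decrease after Cyp2c69 at 427 mg/kg-d. It was at 10.06, 10.63 and 10.99 in controls, 8.42, 9.28 and 9.58 at 313 mg/kg-d and 8.69, 8.88 and 9.53 at 427 mg/kg-d. All libraries at both doses were below all controls, with changes of -1.46 ± 0.19 (adjusted p = 2.51e-06) and -1.52 ± 0.19 (adjusted p = 6.55e-07). Cyp2c68 was at 8.33, 8.82 and 9.27 in controls and 7.23, 7.43 and 8.26 at 427 mg/kg-d, below all controls (-1.18 ± 0.24, adjusted p = 0.000464). Both transcripts share windows with Cyp2c40, 40.0% for Cyp2c67 and 35.6% for Cyp2c68, and Cyp2c40 was not analysed here, so that reads of these paralogs may be divided among them.

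Cyp2c69, the closest to Cyp2c40 (46.3% of windows) and female-biased in adults, varied widely between mice. Its controls were at 0.82, 2.27 and 4.31, or 7 to 185 reads, and its libraries at 427 mg/kg-d at 0.00, 0.26 and 2.09, or 0 to 30 reads, with overlap through mouse 99. The change was -1.91 ± 0.50 (adjusted p = 0.00418).

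Cyp2c70, which makes muricholic acids in mouse bile, had the highest probe level of the subfamily. It was at 11.93, 12.66 and 13.13 in controls, 12.78, 12.83 and 13.34 at 198 mg/kg-d, 11.47, 11.99 and 12.67 at 313 mg/kg-d and 11.09, 11.57 and 12.27 at 427 mg/kg-d. The groups overlapped, and it fell by 0.95 at 427 mg/kg-d (SE 0.22, adjusted p = 0.00132) and by 0.59 at 313 mg/kg-d (adjusted p = 0.0415). The call at 313 mg/kg-d was lost when any of 6 libraries was left out (controls 4, 7 and 8 and mice 73, 74 and 75), with adjusted p-values of up to 0.116.

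Cyp2c54, an epoxygenase regulated by CAR, was at 9.91, 10.43 and 10.92 in controls, 8.34, 9.14 and 10.23 at 313 mg/kg-d and 9.43, 9.62 and 9.88 at 427 mg/kg-d. Only at 427 mg/kg-d were all 6 libraries below the controls, although the mean decrease was 1.27 at 313 mg/kg-d (adjusted p = 8.71e-05) and 0.79 at 427 mg/kg-d (adjusted p = 0.00667). Cyp2c50, Cyp2c55 and Cyp2c29 had wider spreads. Cyp2c50 changed by -1.21 ± 0.42 at 427 mg/kg-d (adjusted p = 0.0305), from 4.34, 5.58 and 6.12 in controls to 3.33, 4.26 and 4.85. Cyp2c55 changed by -1.26 at 313 mg/kg-d (adjusted p = 0.000936) and -0.74 at 427 mg/kg-d (adjusted p = 0.0374), where the groups of 3.35, 4.75 and 5.18 and of 3.28, 3.89 and 4.55 overlapped. Leaving out any of 5 libraries (controls 4, 5 and 6 and mice 97 and 101) ended the Cyp2c50 call at 427 mg/kg-d, and leaving out any of 8 ended that of Cyp2c55 (controls 4, 5, 6 and 7 and mice 97, 98, 100 and 102), with adjusted p-values of up to 0.0748 and 0.0988.

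Cyp2c29, an abundant CAR-regulated epoxygenase with an attenuated probe, passed at 313 mg/kg-d only. Its values were 11.38, 12.21 and 12.61 in controls, 10.73, 11.07 and 11.54 at 313 mg/kg-d and 11.04, 11.86 and 12.07 at 427 mg/kg-d. It fell by 1.04 at 313 mg/kg-d (adjusted p = 0.000169), whereas the change at 427 mg/kg-d was -0.41 (95% interval -0.80 to -0.03, adjusted p = 0.0992), with overlap in both, and the step between these doses was 0.62 (adjusted p = 0.0666). It passed at 427 mg/kg-d without control 8 (-0.57), with library quality weights (adjusted p = 0.0454) and after median-ratio rescaling (adjusted p = 0.0249).

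2 further Cyp2c genes passed at 313 mg/kg-d only. Cyp2c23, an epoxygenase also known as Cyp2c44 that lies apart from the cluster, was at 3.81, 4.72 and 4.95 in controls, 4.59, 5.11 and 5.28 at 198 mg/kg-d, 4.70, 5.21 and 5.39 at 313 mg/kg-d and 4.62, 5.08 and 5.11 at 427 mg/kg-d. It rose by 0.52 ± 0.16 at 313 mg/kg-d (adjusted p = 0.0159), and the change at 427 mg/kg-d was 0.39 (95% interval 0.06 to 0.71, adjusted p = 0.0688), with overlap at each dose. The rise of Cyp2c23 at 313 mg/kg-d is not among the calls after median-ratio rescaling. Cyp2c37, at 1.40, 1.90 and 2.36 in controls and 0.81, 1.34 and 1.85 at 313 mg/kg-d, fell by 0.53 (adjusted p = 0.0342), and its change at 427 mg/kg-d was -0.43 (adjusted p = 0.0854).

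**Figure D3:**
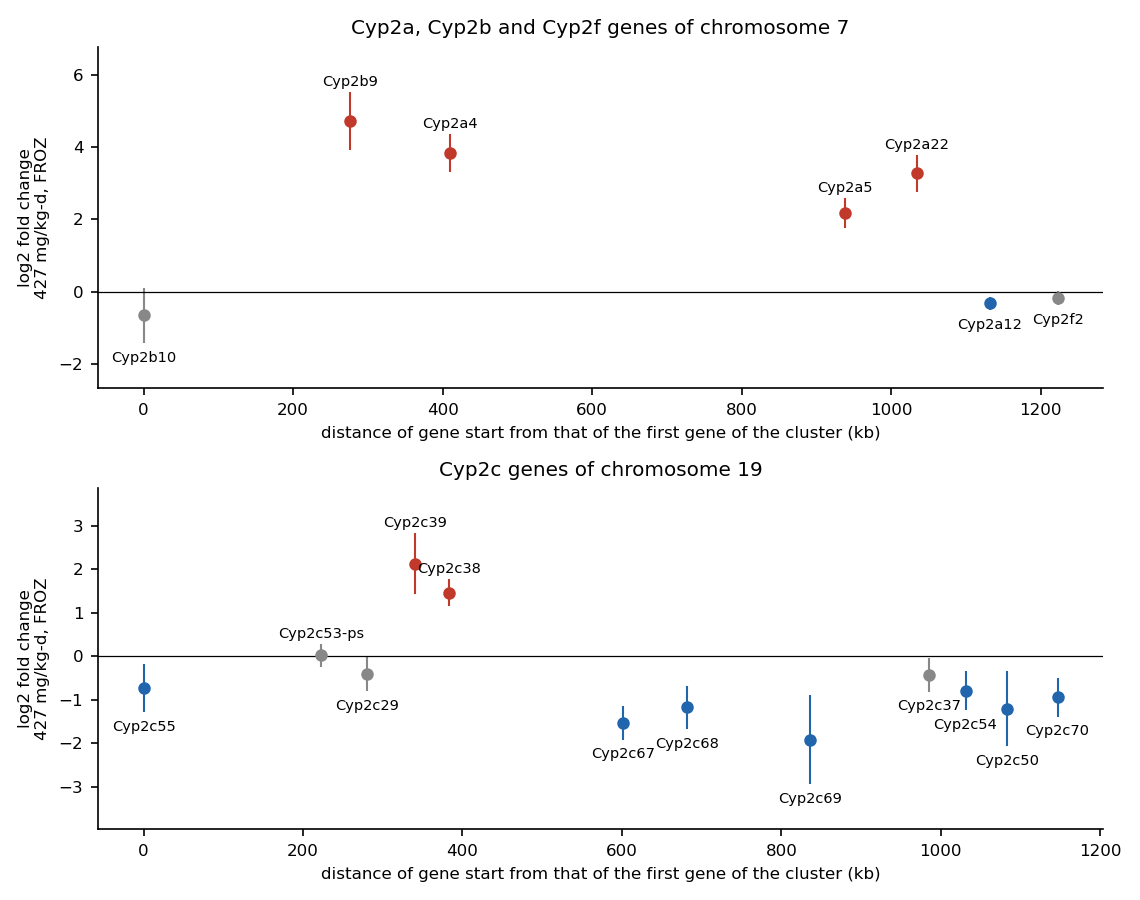
Log2 fold change at 427 mg/kg-d in FROZ along the P450 clusters of chromosome 7 (top) and chromosome 19 (bottom), against the distance in kb of each gene's lowest coordinate from that of the first gene; bars are 95% intervals, red rose, blue fell, grey did not pass. On chromosome 7, Cyp2b9, Cyp2a4, Cyp2a5 and Cyp2a22 rise between Cyp2b10 and Cyp2a12, and on chromosome 19 the neighbours Cyp2c39 and Cyp2c38 rise among genes that fell or did not pass.

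**Figure D4:**
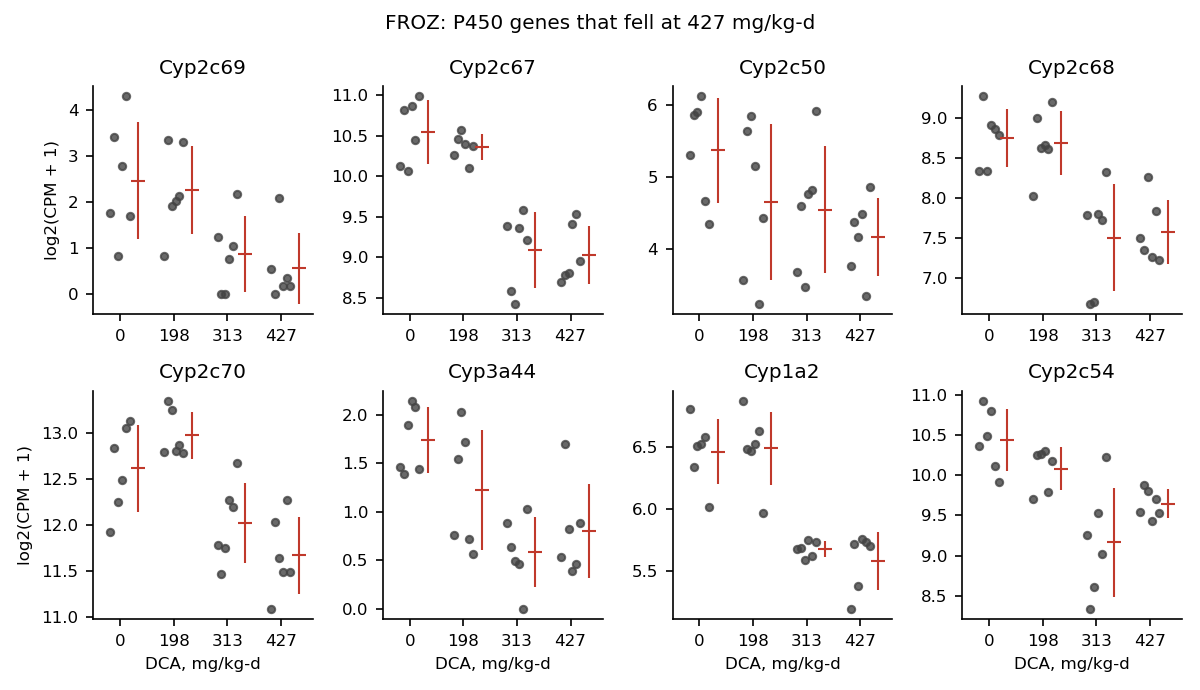
FROZ values in log2(CPM + 1) of 8 P450 genes that fell at 427 mg/kg-d, for each of the 6 libraries of the vehicle and the 3 DCA doses in mg/kg-d; points are libraries and bars the group mean ± SD. Most are already low at 313 mg/kg-d, Cyp1a2 is at 5.58 to 5.75 there against 6.02 to 6.80 in controls, and Cyp2c69 spreads from 0.82 to 4.31 in controls.

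Cyp1a2, the pericentral AhR target that oxidises caffeine and aromatic amines, fell at both higher doses with little spread. It was at 6.02, 6.51 and 6.80 in controls, 5.97, 6.50 and 6.87 at 198 mg/kg-d, 5.58, 5.68 and 5.75 at 313 mg/kg-d and 5.20, 5.71 and 5.76 at 427 mg/kg-d. All 12 libraries of the higher doses were below all 6 controls, and the decreases were 0.78 ± 0.13 (adjusted p = 4.28e-05) and 0.88 ± 0.13 (adjusted p = 5.56e-06). The other family 1 genes were near their lower limit. Cyp1a1 had 4 to 15 reads in controls and 5 to 17 at 427 mg/kg-d (-0.00, 95% interval -0.37 to 0.36), and Cyp1b1 2 to 4 and 1 to 7 reads (0.05, interval -0.32 to 0.42). Of the AhR targets outside family 1, all 3 listed rose at 427 mg/kg-d (22.7% of all genes), Nqo1 (a quinone reductase that NRF2 also induces) by 1.41, Tiparp by 0.42 and Ugt1a6a by 0.39, and the calls of Tiparp and Ugt1a6a were lost after median-ratio rescaling. Ahr itself changed by -0.10 (adjusted p = 0.734). The summed pericentral markers, of which all 8 were listed, ran from 703 to 803 CPM in controls and from 666 to 939 CPM at 427 mg/kg-d, with Rhbg and Slc1a2 lower, and their part in the Cyp1a2 result was not tested.

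Cyp3a genes, which include the main drug-metabolising P450s of the adult liver, moved in different directions at the same dose. Cyp3a13, which lies apart from the other Cyp3a genes on chromosome 5, was at 4.91, 5.94 and 6.18 in controls, 6.16, 6.43 and 6.78 at 313 mg/kg-d and 6.26, 6.45 and 6.89 at 427 mg/kg-d. Its libraries at 427 mg/kg-d were all above the controls, and it rose by 0.75 ± 0.24 (adjusted p = 0.0204) and 0.79 ± 0.24 (adjusted p = 0.0124). After median-ratio rescaling the changes were 0.61 (adjusted p = 0.0689) and 0.63 (adjusted p = 0.0509). Cyp3a44 fell at both doses, from 1.39, 1.68 and 2.14 in controls (13 to 32 reads) to 0.39, 0.68 and 1.70 at 427 mg/kg-d (3 to 20 reads), with 1 of the 6 libraries inside the control range (-0.94 ± 0.25, adjusted p = 0.00449). Cyp3a11, the classical PXR target, was at 7.38, 8.53 and 8.76 in controls and 6.95, 8.24 and 9.21 at 427 mg/kg-d, with a change of -0.20 (95% interval -0.90 to 0.50, adjusted p = 0.713).

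Cyp3a25 reversed between the higher doses. It was at 9.72, 9.95 and 10.25 in controls, 9.90, 10.15 and 10.67 at 198 mg/kg-d, 8.94, 9.51 and 9.70 at 313 mg/kg-d and 10.21, 10.41 and 10.49 at 427 mg/kg-d. The libraries at 313 mg/kg-d were all below the controls (-0.55 ± 0.12, adjusted p = 0.0017), those at 427 mg/kg-d overlapped the control maximum (0.43 ± 0.12, adjusted p = 0.00918), and the step between these doses was 0.98 ± 0.12 (adjusted p = 3.55e-05). The rise at 427 mg/kg-d is not among the calls after median-ratio rescaling. Cyp3a25 was outside the rule for naming genes and was singled out after its values were seen, as were Cyp1a1, Cyp2b10, Cyp2c23, Cyp2c37, Cyp2d9, Cyp3a11 and Cyp3a16. Cyp3a16, at 3.26, 3.58 and 4.95 in controls and 2.67, 2.90 and 3.26 at 313 mg/kg-d, fell there (-0.82 ± 0.29, adjusted p = 0.0339) and changed by -0.21 at 427 mg/kg-d (95% interval -0.79 to 0.38). Cyp3a41a and Cyp3a41b share 93.7% of windows, and the CPM of Cyp3a41a was 2.10 to 2.11 times that of Cyp3a41b in all 24 FROZ libraries, so that they hold 1 measurement. Both are nevertheless counted among the 42 genes of FROZ and the 27 of FFPE. Cyp3a41a was at 9.45, 10.12 and 10.57 in controls and 9.67, 10.44 and 10.55 at 427 mg/kg-d (0.23, 95% interval -0.19 to 0.66).

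The remaining subfamilies did not pass at 427 mg/kg-d as deposited. After median-ratio rescaling Cyp2d11, Cyp2d22, Cyp2d40, Cyp2e1, Cyp2f2 and Cyp2r1 fell. The 6 Cyp2d genes, relatives of the human debrisoquine hydroxylase, had changes between -0.43 and 0.19, and Cyp2d10, with the highest probe level of them, was at 9.62, 9.94 and 10.15 in controls and between 9.84 and 10.20 at 427 mg/kg-d (0.11, 95% interval -0.08 to 0.31). Cyp2e1, which oxidises ethanol and small solvents and has an attenuated probe, was at 13.09, 13.38 and 13.61 in controls, 12.71, 12.90 and 13.07 at 313 mg/kg-d and 13.01, 13.17 and 13.29 at 427 mg/kg-d. It fell by 0.46 at 313 mg/kg-d (adjusted p = 0.00544), with all libraries below the controls, and its change at 427 mg/kg-d was -0.20 (95% interval -0.45 to 0.04), which passed after rescaling (-0.36, adjusted p = 0.0269). Cyp2j5, an arachidonic acid epoxygenase, was at 8.39, 8.59 and 8.63 in controls and 8.38, 8.51 and 9.01 at 427 mg/kg-d (-0.00, 95% interval -0.19 to 0.19). Cyp2r1, the vitamin D 25-hydroxylase, was at 3.68, 3.80 and 4.18 in controls and 3.23, 3.61 and 3.75 at 427 mg/kg-d (-0.29, interval -0.56 to -0.03, adjusted p = 0.0865), and Cyp2u1, a fatty acid hydroxylase, at 2.44, 2.96 and 3.36 and at 2.05, 2.70 and 2.92 (-0.28, interval -0.62 to 0.06). For these genes a missed threshold does not show that the level was the same.

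The steps between neighbouring doses are differences of dosed groups only, but share the dosed libraries with the contrasts above. They come from the same fit, so the controls enter the estimate of the spread. From 198 to 313 mg/kg-d, 3 P450 genes rose (8.05% of all genes) and 9 fell (3.65% of all genes). From 313 to 427 mg/kg-d, 7 rose (1.73% of all genes) and 1 fell (1.34% of all genes). Cyp2b9 rose by 2.49 ± 0.39 in the first step and by 2.62 ± 0.39 in the second, Cyp2a4 by 1.44 ± 0.25 and 2.23 ± 0.25, and Cyp2a22 by 1.39 ± 0.25 and 2.18 ± 0.25 (adjusted p of 0.000459 or less). Cyp2a5 changed by 0.59 ± 0.20 in the first step, which did not pass (adjusted p = 0.0563), and rose by 1.25 ± 0.20 in the second (adjusted p = 0.000685). Cyp2c67 fell by 1.27 ± 0.19 in the first step (adjusted p = 5.4e-05) and changed by -0.06 in the second (95% interval -0.45 to 0.33). Cyp1a2 likewise fell by 0.81 ± 0.13 (adjusted p = 9.35e-05) and then changed by -0.09 (interval -0.35 to 0.16). The gene that fell in the second step was Cyp2r1 (-0.46, adjusted p = 0.047), a call lost when any of 8 libraries was left out (mice 74, 75, 76, 78, 99, 100, 101 and 102).

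In sum over a subfamily, the Cyp2a probes rose from 488 ± 31.6 CPM in controls to 1131 ± 282 CPM at 427 mg/kg-d (mean ± SD, n = 6), with all dosed libraries (894 to 1508 CPM) above the controls (451 to 541 CPM). The Cyp2b probes went from 5.31 ± 3.17 to 60.7 ± 52.1 CPM. The 13 Cyp2c probes went from 14839 ± 2442 CPM in controls to 14732 ± 2027, 8153 ± 2301 and 8715 ± 1840 CPM, and the libraries at 427 mg/kg-d (5835 to 10834 CPM) were all below the controls (11190 to 18120 CPM). Cyp3a sums were 3083 ± 526, 3356 ± 889, 2432 ± 477 and 3715 ± 427 CPM, with overlap between controls and 427 mg/kg-d. All 42 genes together took 3.11 ± 0.284% of reads in controls and 2.98 ± 0.349, 2.09 ± 0.299 and 2.49 ± 0.169% at the 3 doses. These sums weight each gene by its probe and its attenuation, carry no test, and were not scaled per length.

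Genes of the same pathways outside families 1 to 3 were counted beside the P450s. Of 9 listed CAR and PXR targets outside Cyp2 and Cyp3, 7 rose and 1 fell at 427 mg/kg-d, where 22.7% of all genes were higher and 7.33% lower, with a median change of 1.17 against 0.10 for all genes. They included Ephx1 (microsomal epoxide hydrolase, 2.04 ± 0.18, adjusted p = 2.8e-09), Abcc3 (a bile acid and glucuronide exporter, 1.74 ± 0.22, adjusted p = 7.8e-07), Gstm3 (a glutathione transferase, 1.50 ± 0.16, adjusted p = 4.19e-08) and Gadd45b (1.27 ± 0.28, adjusted p = 0.00101), while Ces2a, a carboxylesterase, fell by 1.32 (adjusted p = 2.5e-07). Among the 8 P450 genes listed as CAR or PXR targets, 1 rose (Cyp3a13) and 3 fell (Cyp2c50, Cyp2c54 and Cyp2c55), and the median was -0.54. After median-ratio rescaling the counts outside Cyp2 and Cyp3 were the same, while among the 8 P450 genes Cyp3a13 was lost and Cyp2c29 and Cyp2c37 joined those that fell. Ephx1 and Gstm3 are also targets of NRF2, whose gene Nfe2l2 rose by 1.54 ± 0.16 (adjusted p = 3.1e-08), so the list does not isolate a receptor.

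Of 16 listed receptors and partners that control P450 genes, 7 rose and 1 fell at 427 mg/kg-d (22.7% and 7.33% of all genes), with a median of 0.16. Besides Nfe2l2, the gene of the bile acid receptor FXR, Nr1h4, rose by 0.97 ± 0.08, those of CAR (Nr1i3) by 0.59 ± 0.14 and PXR (Nr1i2) by 0.51 ± 0.13, Arnt by 0.50 ± 0.10, Hnf4a by 0.45 ± 0.12 and Ppara by 0.39 ± 0.15, while Esr1 fell by 0.77. After median-ratio rescaling, when 12.1% of all genes were higher and 13.2% lower, the calls of Hnf4a and Ppara were lost. Of 5 electron donors 3 rose, Pgrmc1 (a haem-binding partner, 0.98 ± 0.14), Por (the P450 reductase, 0.68 ± 0.18) and Cyb5b (0.37 ± 0.11), the last not after rescaling, with a median of 0.37. Of 12 haem genes 3 rose and 1 fell, with a median of 0.23, shares close to those of all genes. Cpox and Blvrb rose by 0.96 and 0.62, Hmox2 fell by 0.47, and Alas1, the rate-limiting enzyme of haem synthesis, changed by 0.80 ± 0.48 (adjusted p = 0.222). After rescaling Uros, the third to rise, was lost and Blvra joined those that fell.

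Sex-biased liver genes were described because Cyp2b9 and Cyp2a4 belong to them, although the mice were young males only. Of 9 P450 genes listed as female-biased, 3 rose (Cyp2b9, Cyp2a4 and Cyp2c39) and 2 fell (Cyp2c69 and Cyp3a44), with a median of 0.23, and all counts of these lists are at 427 mg/kg-d and stand against 22.7% of all genes higher and 7.33% lower. The 9 count both Cyp3a41a and Cyp3a41b, which hold 1 measurement, and the median is the value of Cyp3a41b. Of 9 listed female-biased genes outside the families 3 rose and 3 fell, among them Acot3, a peroxisomal thioesterase that PPARA also induces, which rose by 8.02 ± 0.45. Of 11 listed male-biased genes outside the families 8 fell and 1 rose (median -1.34), with Ugt2b38 at -3.11 ± 0.27, Elovl3, a fatty acid elongase, at -2.75 ± 0.26, Cyp7b1, an oxysterol hydroxylase, at -1.85 ± 0.26 and Mup20 at 1.65 ± 0.38. The male-biased P450 Cyp2d9 was at 5.31, 6.07 and 6.18 in controls and 5.17, 6.11 and 6.19 at 427 mg/kg-d (-0.00, 95% interval -0.38 to 0.37). Of 8 listed growth hormone signalling genes 0 rose and 2 fell, Stat5b by 0.65 and Ghr by 0.49. The counts of these 4 lists were the same after median-ratio rescaling.

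In FFPE liver the same mice showed the Cyp2a increases with a wider spread. With limma across all FFPE genes, 0 of 27 P450 genes passed at 198 mg/kg-d (0.03% of all genes higher and 0.03% lower). At 313 mg/kg-d 1 of 27 rose (0.764% of all genes) and 0 fell (0.315% of all genes), and this gene was a DEG (0.809% of all genes). At 427 mg/kg-d 2 of 27 rose (1.54% of all genes) and 0 fell (0.869% of all genes), both DEGs (1.81% of all genes). An unadjusted p under 0.05 was reached by 5, 7 and 9 of the 27 at the 3 doses, against 11.8, 11.7 and 8.71% of all genes, and 3 of the 27 lay outside the control range at 427 mg/kg-d (4.48% of all genes), namely Cyp2a4, Cyp2a5 and Cyp3a11.

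FFPE Cyp2a4 was at 2.88, 4.60 and 5.93 in controls, 0.00, 4.55 and 5.65 at 198 mg/kg-d, 1.63, 6.38 and 7.75 at 313 mg/kg-d and 7.38, 8.31 and 9.49 at 427 mg/kg-d. All 6 libraries at 427 mg/kg-d were above the controls, and the change was 3.86 ± 0.87 (adjusted p = 0.00865), against 3.84 ± 0.25 in FROZ. FFPE Cyp2a5 was at 7.58, 8.41 and 8.77 in controls, 8.36, 9.63 and 10.63 at 313 mg/kg-d and 9.69, 10.45 and 11.39 at 427 mg/kg-d. It was above all controls at 427 mg/kg-d and overlapped them at 313 mg/kg-d, with changes of 2.18 ± 0.32 (adjusted p = 2.16e-05) and 1.29 ± 0.32 (adjusted p = 0.031). The call at 313 mg/kg-d was lost without the 4 libraries with over 1000 genes at 0 (1.21, adjusted p = 0.0619), and the Cyp2a4 call at 427 mg/kg-d was lost with an offset of 0.1 CPM in place of 1 (adjusted p = 0.092). Mouse 99 had the highest Cyp2a4 and mouse 102 the highest Cyp2a5 at 427 mg/kg-d in FFPE as in FROZ.

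The genes that fell in FROZ did not pass in FFPE with all libraries at equal weight and values as deposited. FFPE Cyp1a2 was at 7.39, 8.34 and 8.44 in controls and 6.81, 7.01 and 7.79 at 427 mg/kg-d, with overlap (-1.02 ± 0.32, adjusted p = 0.0937), and it passed with median-ratio scaling (adjusted p = 0.0332), with the dose and controls only (0.00358) and with quality weights (0.000125). Cyp2c67 was at 5.90, 7.43 and 8.29 and at 4.65, 6.22 and 6.63 (-1.10 ± 0.44, adjusted p = 0.327). Cyp2c54 was at 9.23, 9.91 and 10.13 and at 8.68, 9.15 and 9.59 (-0.67 ± 0.25, adjusted p = 0.252). FFPE Cyp2c39 had 2 controls at 0 and was at 0.00, 3.61 and 5.26 in controls and 4.87, 5.52 and 7.25 at 427 mg/kg-d (3.09 ± 1.13, adjusted p = 0.233), and Cyp3a25 was at 6.76, 7.55 and 8.76 and at 8.50, 8.95 and 9.51 (1.21 ± 0.38, adjusted p = 0.0999). With quality weights Cyp2c67 (adjusted p = 0.00403), Cyp2c54 (0.00876) and Cyp2c39 (0.0104) passed as well, and with the dose and controls only Cyp2c54 (0.0142) and Cyp2c39 (0.0273). Cyp2b9, Cyp2a22, Cyp2c38, Cyp2c69, Cyp2c55 and Cyp3a44 were not analysed in FFPE here. Summed hepatocyte markers in FFPE ran from 76560 to 100000 CPM in controls and from 42750 to 47710 CPM at 427 mg/kg-d, with 5 of 9 lower, and their part in these values was not tested.

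Of the 27 genes, 15, 20 and 21 had the same sign of change in FROZ and FFPE at 198, 313 and 427 mg/kg-d, against 49.2, 58.2 and 69.9% of all 6591 genes listed in both, and of those called in FROZ 12 of 14 at 313 and 10 of 12 at 427 mg/kg-d did, the exceptions being Cyp2c37 and Cyp2c68 at 313 and Cyp2a12 and Cyp2c68 at 427 mg/kg-d. Tested within each mouse, the FFPE minus FROZ difference of the dose effect passed for 0 of 27 genes at 198 (0.0303% of all genes), 0 at 313 (0% of all genes) and 0 at 427 mg/kg-d (0.0303% of all genes), and 4, 3 and 1 had an unadjusted p under 0.05, against 11.4, 7.39 and 2.22% of all genes. At 427 mg/kg-d the difference was 0.02 for Cyp2a4 (95% interval -1.85 to 1.90), 0.01 for Cyp2a5 (-0.58 to 0.61), -0.14 for Cyp1a2 (-0.89 to 0.61) and 0.11 for Cyp3a13 (-1.32 to 1.54). The intervals of Cyp2a4 and Cyp3a13 exceed 1 log2 unit on either side, so differences of that size were not detectable for them. The gene with an unadjusted p under 0.05 at 427 mg/kg-d was Cyp3a11 (1.60, 0.07 to 3.14, adjusted p = 1.00).

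**Figure D5:**
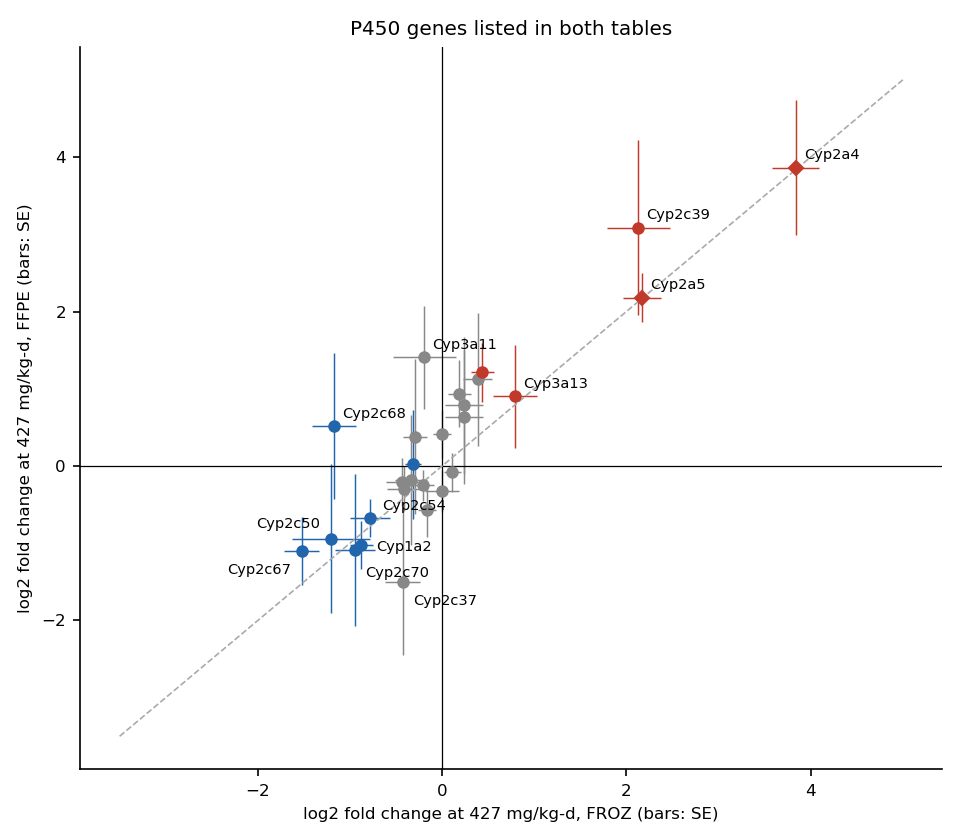
Log2 fold change at 427 mg/kg-d in FFPE (vertical) against FROZ (horizontal) for the 27 P450 genes listed in both; bars are SE, red rose and blue fell in FROZ, grey did not pass in FROZ, diamonds passed in FFPE, and the dashed line marks equal change. Cyp2a4 (3.84 and 3.86) and Cyp2a5 (2.17 and 2.18) lie on the line, and the vertical bars are longer than the horizontal ones.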

How the data were processed

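TempO-Seq libraries of FROZ and FFPE liver from 24 mice were grouped by dose from the sample labels (6 per dose and preservation, separate animals). Per the study's methods and the submitters' processing notes, reads were aligned to mm10 with STAR 2.6 in Partek and assigned to RefSeq transcripts by expectation maximization. The authors kept genes whose geometric mean exceeded 1, scaled each table separately to CPM and deposited log2 values of CPM with an offset of 1. Low values were whole multiples of 1 read (within 0.1 read) for 96.5 to 97.6% of values in FROZ and 85.7 to 96.4% in FFPE, which gave the depths quoted. A member with low values is listed only where it passed the authors' filter, to which every dose group contributed.

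Each table was fitted across all genes with limma 3.58.1 in R 4.3.3 (group means of the 4 doses, variance prior that follows the mean, Benjamini-Hochberg adjustment), and a DEG also changed more than 2-fold. Only the values and the pathway counts of the P450 genes are given. The FFPE minus FROZ difference was fitted on within-animal differences. The pairing comes from the labels (both libraries of a mouse), and over 4227 genes the deviations from dose means correlated with a median of 0.144 within an animal and -0.0245 with other animals of the dose, 21 of 24 correlating best with their own. The text names the markers, DEGs at any dose, genes passing in both preservations at 427 mg/kg-d, those whose preservations differ and the gene with the highest mean CPM of each subfamily; others are named as chosen after their values were seen. Members and lists were chosen with earlier results of these data known. Alternatives were offsets of 0.1 and 5 CPM, a minimum mean of 10 CPM, median-ratio scaling, the dose and controls only, a prior without trend, quality weights, leaving out each library and, chosen after seeing the data, leaving out 4 FFPE libraries. Positions and promoters are from RefSeq on GRCm38.p6, with shares of transcript sequence counted in 50-base windows. Scripts were tested on simulated data and used Python 3.11.15, numpy 2.4.6, pandas 2.3.3 and matplotlib 3.10.9.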

Additional observations from a re-analysis of the deposited data

Results flagged for a closer look

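A library far from the other 5 of its group (gap to its nearest neighbour over the group's range above Dixon's 95% critical value) was found in 18 of 176 groups of named P450 genes, 10.2%, where chance gives about 1 in 20. In FROZ liver, the highest Cyp1b1 value at 198 mg/kg-d was 1.68 log2(CPM + 1) with the next at 0.66, the highest Cyp2c69 value at 427 mg/kg-d 2.09 with the next at 0.54 (mouse 99), and the highest Cyp2j5 value at 427 mg/kg-d 9.01 with the next at 8.57. The lowest FROZ values apart from their group were Cyp2a5 in controls (6.12, next 6.73), Cyp2j5 in controls (8.39, next 8.58), Cyp2e1 at 198 mg/kg-d (12.69, next 13.09), Cyp3a13 at 198 mg/kg-d (4.56, next 6.02) and Cyp3a41a at 427 mg/kg-d (9.67, next 10.35).

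In FFPE liver all 10 such values were the lowest of their group. They were Cyp2a12 at 313 mg/kg-d (0.00, next 4.38), Cyp2a4 at 313 mg/kg-d (1.63, next 5.90), Cyp2c68 at 313 mg/kg-d (1.97, next 4.42), Cyp2c70 at 198 mg/kg-d (5.23, next 8.26), Cyp3a13 at 198 mg/kg-d (0.63, next 5.03) and Cyp2c67 at 427 mg/kg-d (4.65, next 5.94). In FFPE controls they were Cyp2c29 (6.98, next 8.50), Cyp2c50 (0.00, next 3.68), Cyp2d10 (7.19, next 8.12) and Cyp3a41a (0.20, next 4.23).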

How the results depend on the processing

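Single genes were followed only where they met the naming rule, and only at 313 and 427 mg/kg-d. None of these reversed under the alternatives run. Of the alternatives other than leaving out a library, 92 counts stayed within 1.5 times and 12 moved. For single genes that met the rule, 619 results kept their call, 14 gained and 9 lost it. Changes of single P450 genes outside the rule are not in this tally. P450 genes lower at 427 mg/kg-d in FROZ went from 10 to 18 with median-ratio scaling. In FFPE at 313 mg/kg-d, genes higher went from 1 to 0 with an offset of 0.1 CPM, a prior without trend, quality weights and without the 4 libraries with over 1000 genes at 0 (chosen after seeing the data), and genes lower from 0 to 1 with quality weights. In FFPE at 427 mg/kg-d, genes higher went from 2 to 1 with an offset of 0.1 CPM, 5 with the dose and controls only and 6 with quality weights, and genes lower from 0 to 1 with median-ratio scaling, 2 with the dose and controls only and 3 with quality weights. The cause was not tested.

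Leaving out each library in turn gave 0 to 1 higher and 0 to 1 lower (1 without mouse 78) in FFPE at 313 mg/kg-d, where controls 3, 5 and 8 and mice 73, 75, 76 and 77 each ended the call, and 2 to 3 higher and 0 lower at 427 mg/kg-d (3 without control 7). In FROZ it gave 5 to 7 higher and 11 to 15 lower at 313 mg/kg-d and 8 to 9 higher and 8 to 12 lower at 427 mg/kg-d. From 198 to 313 mg/kg-d it gave 3 to 5 higher (5 without mouse 77) and 9 to 10 lower, and from 313 to 427 mg/kg-d 6 to 9 higher and 0 to 1 lower. Among genes that met the naming rule, calls lost at 313 mg/kg-d in FROZ besides Cyp2c70 were those of Cyp2c38 (without control 3 or mice 73 or 78), Cyp3a13 (controls 6 or 8) and Cyp2c69 (control 7, -1.23). Single calls outside the rule, among them those of Cyp2c23, Cyp2c37, Cyp3a16 and Cyp3a25, were not followed. The counts there moved further than the listed losses, from 7 to 5 higher without control 8 and from 14 to 11 lower without mouse 74. The FFPE minus FROZ difference without the pairing (no animal block) called 0 P450 genes at each of the 3 doses, as with it. FFPE libraries held 1832000 to 6012000 reads with 65 to 1580 genes at 0, and the part of this in the number of FFPE calls was not tested.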
